A study of Saccharomyces cerevisiae with 3 samples.

Results

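The genes described here encode enzymes that modify, splice and ligate transfer RNA in the budding yeast Saccharomyces cerevisiae. They were chosen by name, with earlier results of these data known. The 40 genes were taken as tRNA methyltransferases, pseudouridine synthases, dihydrouridine synthases, deaminases, Elongator subunits and splicing and ligation enzymes. Of these, 38 had a named probe among the 5203 genes named on the array, and 20 had a value on all 3 arrays, out of 3802 features (genes or unnamed probes) that did. IKI3 (YLR384C) and NCL1 (YBL024W) were not analysed here.

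A tRNA transcript is trimmed at both ends, loses its intron where it has one, and receives chemical modifications on many of its nucleotides before it carries amino acids to the ribosome. Modifications in and beside the anticodon tune decoding, and those in the body of the molecule help it fold and last. The transcripts measured here are the messenger RNAs of the enzymes. The RNA was polyA RNA, so neither the tRNAs nor their modifications were measured.

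Cells of the laboratory strain S288C treated with 1.5 uM fluazinam for 2 h were set against untreated cells grown for the same 2 h. Fluazinam is an agricultural fungicide known as an uncoupler of oxidative phosphorylation. It was added to 100 ml cultures growing exponentially in rich glucose medium (YPD) at 25 C. On each of 3 dual-colour arrays, Cy5-labelled cDNA of treated cells was hybridised with Cy3-labelled cDNA of untreated cells, and the labels describe the 3 as independent biological samples. The labels do not say how many untreated cultures were used, and both groups are the same strain.

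Values are the deposited log ratios, read as log2 of treated over untreated. Neither the base nor the direction of the ratio was stated. The direction is likely rather than settled, since it rests on the treated sample being the Cy5 channel, and with the opposite sign every value below would turn. Treated RNA carried the same dye on all arrays, so gene-specific dye bias and treatment cannot be told apart. Spot intensities were not used here, and the number of arrays limits the precision.

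The tRNA enzyme genes lay slightly below 0 on balance, the side of lower levels in treated cells, and none passed the test. Among the 20 with a value on all arrays, 17 had a mean below 0, where 50.2% of all features tested did, and the median of their mean log2 ratios was -0.29, against -0.0049 over all features. Their array medians were -0.26, -0.26 and -0.30 on replicates 1 to 3, against 0.05, -0.07 and -0.03 over all features. Over all members with a value on an array, tested or not, they were -0.08, -0.43 and -0.43. Over all probes with a value on an array, the medians were 0.09, -0.02 and 0.005. In limma's moderated test with Benjamini-Hochberg adjustment, 0 of the 20 passed an adjusted p of 0.05, where 7.86% of all features did. Of all features, 4.47% passed lower and 3.39% higher. Without moderation 0 of the 20 passed, where only 1 of all features did, so that setting says little about these genes. An unadjusted p under 0.05 was reached by 6 of the 20, 5 lower and 1 higher, where 29.7% of all features reached it, 17.0% lower and 12.7% higher. That share lies at the background. In these bulk cultures, fewer cells of one state and less of a transcript per cell cannot be told apart.

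On all 3 arrays 10 of the 20 were below 0, where 27.1% of all features were, and 1 was above 0, where 25.2% were. The other 9 changed sign between arrays, where 47.7% of all features did. The 20 are the members that could be tested, and 52.6% of the 38 had all 3 values, against 68.7% of all named genes. The shortfall lay on replicate 1, where 65.8% of the 38 had a value against 77.4% of all named genes, and on replicate 3, with 78.9% against 84.6%, while on replicate 2 it was 94.7% against 91.9%. Of the 18 others, 13 had values on 2 arrays and 5 on 1 array. Both values were below 0 in 9 of the 13, both were above 0 in 1, and 3 had 1 of each sign. The matching shares over all features with values on just 2 arrays were not computed, so these counts have no background here. When genes with at least 2 values were fitted, 0 of 33 tRNA enzyme genes passed, where 4.80% of all such features did.

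**Figure D1:**
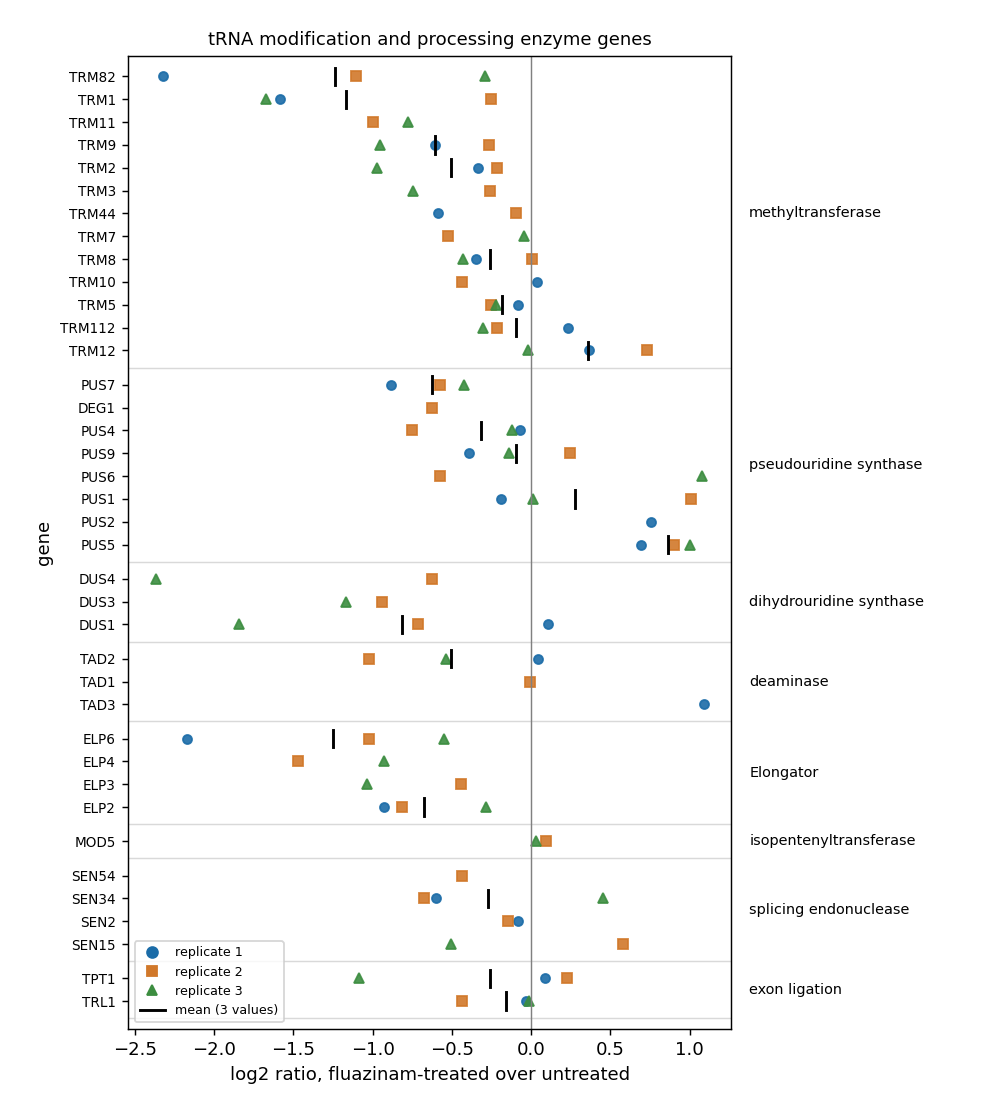
Log2 ratio of treated over untreated cells (horizontal axis) on each array for the 38 tRNA enzyme genes on the array (vertical axis), grouped by enzyme class; points are single arrays and black bars are means over 3 values. Elongator genes lie left of 0 at every point, and PUS5 lies right of 0 on all 3 arrays.

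Methyltransferases formed the largest class, with 13 genes on the array and 8 tested. Of those 8, 7 had a mean below 0 and 0 passed the test, and the class median was -0.38. TRM82 (YDR165W) encodes the partner subunit that holds the catalytic Trm8 in the enzyme for N7-methylguanosine. It had log2 ratios of -2.32, -1.11 and -0.29 on replicates 1 to 3. All 3 were below 0 and replicate 1 was by far the lowest. The mean was -1.24 ± 1.02 (SD, n = 3), with a 95% interval of -2.18 to -0.30 and an adjusted p of 0.0962. It was -0.70 without replicate 1 and -0.97 with block medians subtracted. The catalytic subunit gene TRM8 (YDL201W) stood at -0.26 ± 0.23, with values between -0.43 and 0.01 and an interval of -0.87 to 0.36. Leaving out 1 array moved it between -0.39 and -0.17. The 2 intervals overlapped, and the difference between the subunits was not tested.

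TRM1 (YDR120C) encodes the enzyme that places dimethylguanosine on cytosolic and mitochondrial tRNAs. Its values were -1.58, -0.25 and -1.67. Replicates 1 and 3 were close to each other and replicate 2 was near 0. The mean was -1.17 ± 0.79 (adjusted p = 0.0820), a level 2.25-fold lower in treated cells with an interval of -1.99 to -0.35 on the log2 scale. Subtracting the median of each block of spots on the array brought it to -0.74.

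TRM9 (YML014W) encodes the methyltransferase that finishes the side chain Elongator starts on wobble uridines. It stood at -0.61, -0.26 and -0.95, all below 0 (mean -0.61 ± 0.34, adjusted p = 0.188), and at -0.27 with block medians subtracted. TRM112 (YNR046W), the small activator that Trm9 and Trm11 share with methyltransferases of ribosomal RNA and of a release factor, had a mean of -0.10 ± 0.29 between -0.30 and 0.23, and without replicate 3 its mean was 0.0090. TRM11 (YOL124C), which makes monomethylguanosine with Trm112, had -1.00 on replicate 2 and -0.78 on replicate 3 and no value on replicate 1.

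TRM2 (YKR056W), the enzyme of ribothymidine in the T loop, had values of -0.34, -0.22 and -0.97, a mean of -0.51 ± 0.41 (adjusted p = 0.269). They were below 0 on every array, with replicate 3 the lowest. Its 2 probes carried identical values on each array, so they add no second measurement. The mean was -0.28 without replicate 3 and -0.29 with block medians subtracted.

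TRM5 (YHR070W), which methylates the guanosine next to the anticodon, stayed between -0.25 and -0.08 with a mean of -0.19 ± 0.09 and an interval of -0.78 to 0.41. With block medians subtracted it was at -0.45. TRM12 (YML005W) was the only one of the 8 with a mean above 0, at 0.36 ± 0.37 between -0.02 and 0.73 (0.21 with block medians subtracted, and 0.17 without replicate 2). Its product transfers an amino-carboxypropyl group rather than a methyl group in the synthesis of wybutosine, the bulky base beside the anticodon of phenylalanine tRNA.

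Methyltransferase genes with 2 values were tested only in the fit of genes with at least 2 values, and none passed there, with adjusted p-values from 0.149 for TRM11 to 0.733 for TRM10. TRM3 (YDL112W), a ribose methyltransferase, had -0.26 and -0.75 on replicates 2 and 3. TRM7 (YBR061C), which methylates riboses of the anticodon loop, had -0.53 and -0.04 on the same arrays. TRM44 (YPL030W), a ribose methyltransferase of serine tRNA, had -0.59 and -0.10 on replicates 1 and 2, where TRM10 (YOL093W), a guanosine methyltransferase, had 0.04 and -0.43. In all, 29 of the 34 values of the class were below 0, where 48.1% to 53.6% of all features tested were on single arrays. The 34 values come from 13 genes and are not independent.

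Elongator is the complex that starts the modification of wobble uridines, and it was first described as a partner of elongating RNA polymerase II. All 10 values of its 4 genes on the array were below 0, where 48.1% to 53.6% of all features tested were on single arrays. The 10 values come from 4 genes and are not independent, and those shares cover only features with a value on every array. ELP6 (YMR312W), a subunit of the ring-shaped accessory subcomplex, had -2.17, -1.02 and -0.55. Replicate 1 was the lowest and the others were still below 0. Its mean of -1.25 ± 0.84 was the lowest of the 20 tested genes, at 2.38-fold lower in treated cells, and it lay at percentile 6.08 of all features from the lowest. The interval was -2.09 to -0.40 and the adjusted p 0.0757, and without replicate 1 the mean was -0.79.

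ELP2 (YGR200C), the scaffold subunit with WD40 repeats, had -0.93, -0.81 and -0.28 (mean -0.67 ± 0.34, adjusted p = 0.149). Replicates 1 and 2 were close together and replicate 3 nearer to 0. The mean of ELP2 was -0.95 with block medians subtracted. ELP3 (YPL086C), the catalytic subunit, had -0.44 and -1.03 on replicates 2 and 3, and ELP4 (YPL101W), of the same subcomplex as Elp6, had -1.47 and -0.93 there. In the fit that took genes with at least 2 values, ELP4 had a mean of -1.20 and an adjusted p of 0.0987, and ELP3 had -0.74 and 0.230. The remaining ring subunit gene, IKI1 (YHR187W), had 1 value, -0.98 on replicate 2. IKI1 was listed among Elongator's partners and was added to the complex after the values were seen. With it, the complex was below 0 in 11 of 11 values, which are likewise not independent. ELP2 and ELP6 did not pass the main test, and IKI1 was in no fit.

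Pseudouridine synthases, which turn uridine into its isomer, showed no common direction. Of 8 genes 5 were tested, with 3 means below 0, 2 above 0 and a class median of -0.10. PUS5 (YLR165C) had 0.69, 0.90 and 1.00, the only tested tRNA enzyme gene above 0 on all arrays, with a narrow spread. Its mean was 0.87 ± 0.16, 1.82-fold higher in treated cells, with an interval of 0.27 to 1.47 and an adjusted p of 0.0805. It was at 0.63 with block medians subtracted (adjusted p = 0.111). The known substrate of Pus5 is the large ribosomal RNA of mitochondria and not a tRNA.

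PUS7 (YOR243C), which also modifies a spliceosomal RNA and messenger RNAs, stood on the other side of 0, at -0.89, -0.57 and -0.42. The arrays lay close together (mean -0.63 ± 0.24, interval -1.24 to -0.01, adjusted p = 0.161). With block medians subtracted it was at -0.93 and passed at an adjusted p of 0.0481, one of 2 tRNA enzyme genes that did, where 10.3% of all features passed in that setting. The other was ELP6 (-1.05, adjusted p = 0.0450). PUS4 (YNL292W), the enzyme of the conserved T-loop pseudouridine, averaged -0.31 ± 0.38 between -0.75 and -0.07. It was at -0.095 without replicate 2 and at -0.62 with block medians subtracted.

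PUS1 (YPL212C), which acts at many tRNA sites in the nucleus, ranged from -0.19 to 1.01 with a mean of 0.28 ± 0.64. Replicate 2 was the high array, and the mean was -0.09 without it and -0.0052 with block medians subtracted. PUS2 (YGL063W), its paralogue acting on mitochondrial tRNA, had a single value of 0.76 on replicate 1. Probe sequences were not used here, so signal shared between these copies was not tested. PUS9 (YDL036C), another mitochondrial tRNA enzyme, averaged -0.10 ± 0.32 between -0.39 and 0.24, and 0.05 without replicate 1. PUS6 (YGR169C) had -0.58 on replicate 2 and 1.08 on replicate 3, opposite in sign. DEG1 (YFL001W), also known as PUS3 and acting in the anticodon stem-loop, had -0.62 on replicate 2 alone.

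Dihydrouridine synthases reduce uridines in the D loop and the variable loop. Of 7 values for 3 genes, 6 were below 0, where 48.1% to 53.6% of all features tested were on single arrays. The 7 values come from 3 genes and are not independent. DUS1 (YML080W) was the only one tested, with a mean of -0.81 ± 0.98, values between -1.84 and 0.11 and an adjusted p of 0.216. Without replicate 3 it averaged -0.30, and with block medians subtracted -0.43. DUS3 (YLR401C) had -0.94 and -1.17 on replicates 2 and 3, and DUS4 (YLR405W) had -0.62 and -2.37. In the fit with at least 2 values their means of -1.05 and -1.50 had adjusted p-values of 0.113 and 0.126. Replicate 3 was the lowest array for all 3 genes.

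Deaminases convert adenosine to inosine. TAD2 (YJL035C), which forms the essential wobble deaminase with Tad3, averaged -0.50 ± 0.53 between -1.02 and 0.04 (adjusted p = 0.300). It was at -0.25 without replicate 2 and -0.32 with block medians subtracted. TAD3 (YLR316C) had 1 value, 1.09 on replicate 1, an array on which TAD2 was at 0.04. The annotated TAD3 gene overlaps NKP2, and with no strand information for the probe, signal from either cannot be told apart. TAD1 (YGL243W), the deaminase of alanine tRNA, had 1 value, -0.01 on replicate 2. MOD5 (YOR274W), which attaches an isopentenyl group to an adenosine beside the anticodon, had 0.10 and 0.03 on replicates 2 and 3, both near 0.

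The 3 splicing and ligation genes tested had means between -0.27 and -0.16. The endonuclease that cuts introns from tRNA has 2 catalytic subunits, Sen2 and Sen34, and 2 structural ones, Sen15 and Sen54. SEN34 (YAR008W) averaged -0.27 ± 0.63 between -0.68 and 0.45 (interval -1.02 to 0.47), and leaving out 1 array gave -0.073 without replicate 2 and -0.64 without replicate 3. SEN2 (YLR105C) had -0.08 and -0.15 on replicates 1 and 2. SEN15 (YMR059W) had 0.58 on replicate 2 and -0.51 on replicate 3, and SEN54 (YPL083C) had -0.43 on replicate 2.

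TRL1 (YJL087C) encodes the ligase that joins tRNA exons and also the HAC1 messenger RNA of the unfolded protein response. It averaged -0.16 ± 0.24 between -0.43 and -0.01, with an interval of -0.77 to 0.45, and it was at -0.023 without replicate 2 and turned to 0.23 with block medians subtracted. TPT1 (YOL102C), which removes the phosphate left at the joint, averaged -0.26 ± 0.72 between -1.09 and 0.23. Replicate 3 was the low array, and the mean was 0.16 without it. For these genes the intervals still hold changes of up to about 1 on the log2 scale, so they do not show that the genes were unaffected.

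**Figure D2:**
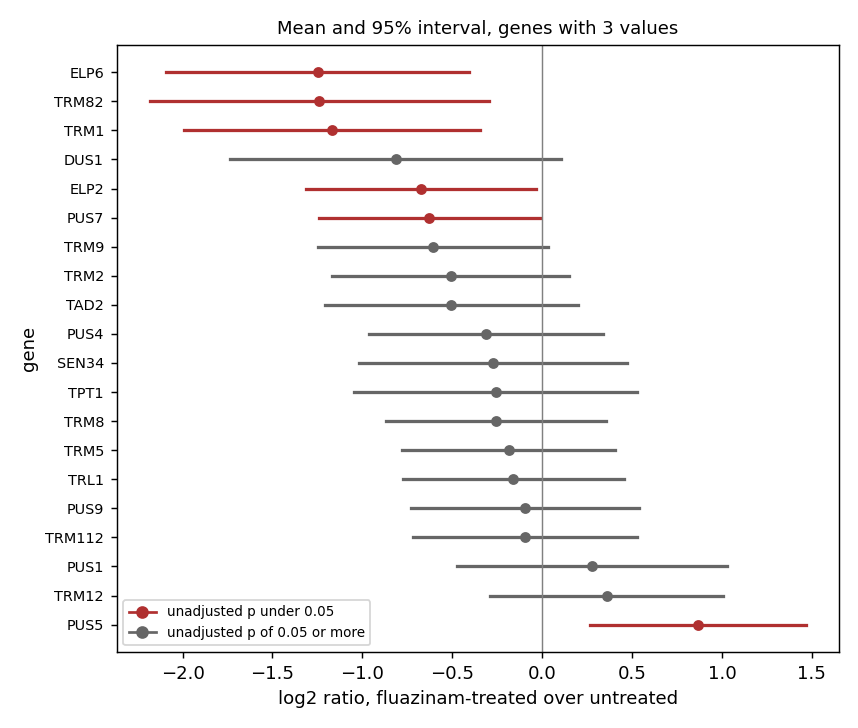
Mean log2 ratio of treated over untreated cells (points) with 95% intervals of the moderated fit (lines) for the 20 genes with 3 values, ordered from the lowest mean at the top. The 6 genes in red, from ELP6 at -1.25 to PUS5 at 0.87, had an unadjusted p under 0.05, and none passed after adjustment.

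Leaving out 1 array at a time changed the count of genes past the threshold. Without replicate 2, 3 of the 20 fell, where 17.3% of all features passed and 9.97% were lower. These were TRM1 (-1.63, adjusted p = 0.00485), TRM82 (-1.31, adjusted p = 0.0431) and ELP6 (-1.36, adjusted p = 0.0273). Without replicate 1 or without replicate 3 the count was 0. Over all features, the count ran from 0 to 657 over the arrays left out. A count of 0 for these genes may thus only follow the setting. On replicate 2, TRM1 was the nearest to 0 of its 3 values, while TRM82 and ELP6 had their middle value there. Across the 20 genes, Pearson correlations were 0.56 for replicate 1 with 2, 0.26 for replicate 1 with 3 and 0.31 for replicate 2 with 3. Over all features, the same pairs had 0.51, 0.63 and 0.43. These are correlations across genes, which are not independent replicates.

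**Figure D3:**
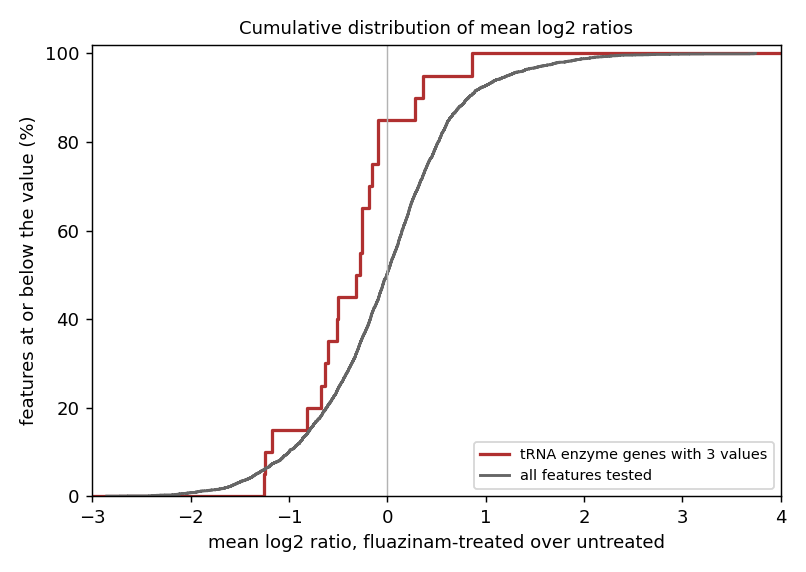
Share of features (percent, vertical axis) with a mean log2 ratio of treated over untreated cells at or below the value on the horizontal axis, for the 20 tRNA enzyme genes with 3 values and for all 3802 features tested. The curve of the tRNA enzyme genes lies left of the other around 0, with medians of -0.29 and -0.0049, and it does not reach the lowest or highest means of all features.

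Other genes of tRNA maturation were read from a list of 55, of which 50 were on the array and 32 tested. KRE33 alone passed, 1 of 32, lower in treated cells, where 4.47% of all features were lower and passed. The median of the 32 was -0.17, and 19 had a mean below 0, where 50.2% of all features did. An unadjusted p under 0.05 was reached by 7, all lower, where 29.7% of all features reached it and 17.0% were lower. KRE33 (YNL132W) encodes the RNA cytidine acetyltransferase, which acts on tRNA and on the RNA of the small ribosomal subunit. It fell on every array, at -1.00, -1.49 and -2.05. The mean was -1.51 ± 0.52 (adjusted p = 0.0343), 2.86-fold lower. The call was lost without replicate 1 (adjusted p = 0.0814), without replicate 3 (0.100) and without moderation (0.309). TAN1 (YGL232W), the adaptor that brings Kre33 to tRNA, was at 0.12 ± 0.25.

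The enzymes of wybutosine synthesis, gathered across both lists after their values were seen, lay on both sides of 0. TRM5, for the first step, was at -0.19 as given above. TYW1 (YPL207W), which builds the tricyclic core, had -3.50, -1.23 and -1.13. All arrays were below -1 and replicate 1 was the lowest, and the mean was -1.96 ± 1.34 (adjusted p = 0.0546). It lay at percentile 0.868 of all features from the lowest, and without replicate 1 it was -1.18.

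TRM12 at 0.36 and TYW3 (YGL050W), a methyltransferase of a later step, at 0.15 ± 0.09 stood above 0. PPM2 (YOL141W), also called TYW4 and acting last, had -1.68, -0.56 and -0.72 (mean -0.99 ± 0.60, adjusted p = 0.0913). The pathway thus held 3 means below 0 and 2 above it, with TYW1 and PPM2 the lowest; differences between its genes were not tested.

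Trm7 works with Trm732 or Rtt10 as alternative partners, whose genes lay on both sides of 0, with no test of their difference. RTT10 (YPL183C) had -1.02, -0.51 and -1.26 (mean -0.93 ± 0.38, adjusted p = 0.0820), while TRM732 (YMR259C) was at 0.29 ± 0.28 with all arrays above 0. TRM13 (YOL125W), a ribose methyltransferase gene next to TRM11 on the chromosome, had 1 value, -1.17 on replicate 2, where TRM11 had -1.00. Among Elongator's regulators, SAP190 (YKR028W), a partner of the Sit4 phosphatase, had the mean farthest from 0 at -0.47 ± 0.63 (adjusted p = 0.358), and the phosphatase gene SIT4 (YDL047W) itself was at 0.32 ± 0.34. SAP190 had its low value on replicate 1, and it was at -0.12 without that array and at -0.27 with block medians subtracted.

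The thiolation genes serve the addition of sulfur to wobble uridines, SLM3 (YDL033C) in mitochondria. None of the 4 tested passed. The median was 0.03 with SLM3 (0.29 ± 0.43) and -0.23 without it, a split made after the values were seen. Single values reached -0.91 for UBA4 (YHR111W) and 0.86 for NFS1, both on replicate 1. NFS1 (YCL017C), the cysteine desulfurase, was at 0.34 ± 0.45 (0.085 without replicate 1 and 0.06 with block medians subtracted) and NCS6 (YGL211W) at -0.23 ± 0.20. Of the genes for threonylcarbamoyl adenosine, SUA5 (YGL169W), of the first step, had -0.91, -0.77 and -1.28 (mean -0.99 ± 0.27, adjusted p = 0.0652). The later-acting KAE1 (YKR038C), BUD32 (YGR262C) and GON7 (YJL184W) were at 0.03 ± 0.13, 0.15 ± 0.22 and 0.18 ± 0.22. SUA5 was below each of them on every array, though the difference was not tested.

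Among the end-processing genes, TRZ1 (YKR079C), the nuclease that cuts the 3′ trailer, had -0.95, -0.42 and -1.22 (mean -0.86 ± 0.41, adjusted p = 0.0967). LHP1 (YDL051W), the La protein that shields that trailer, was at -0.72 ± 0.06 (adjusted p = 0.112), and CCA1 (YER168C), which adds the terminal CCA, at -0.48 ± 0.06. These genes were below 0 on every array, and LHP1 and CCA1 each varied little between arrays. THG1 (YGR024C), which adds a guanosine to the end of histidine tRNA, was at 0.40 ± 0.47. The protein subunits of RNase P, the nuclease of the 5′ end, were grouped after the values were seen. They were mixed, with 7 of 17 values below 0, where 48.1% to 53.6% of all features tested were on single arrays. The 17 values include several per gene and are not independent. MSN5 (YDR335W), an export receptor, was at -0.16 ± 0.25, between -0.30 and -0.076 over the arrays left out, and at -0.30 with block medians subtracted.

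**Figure D4:**
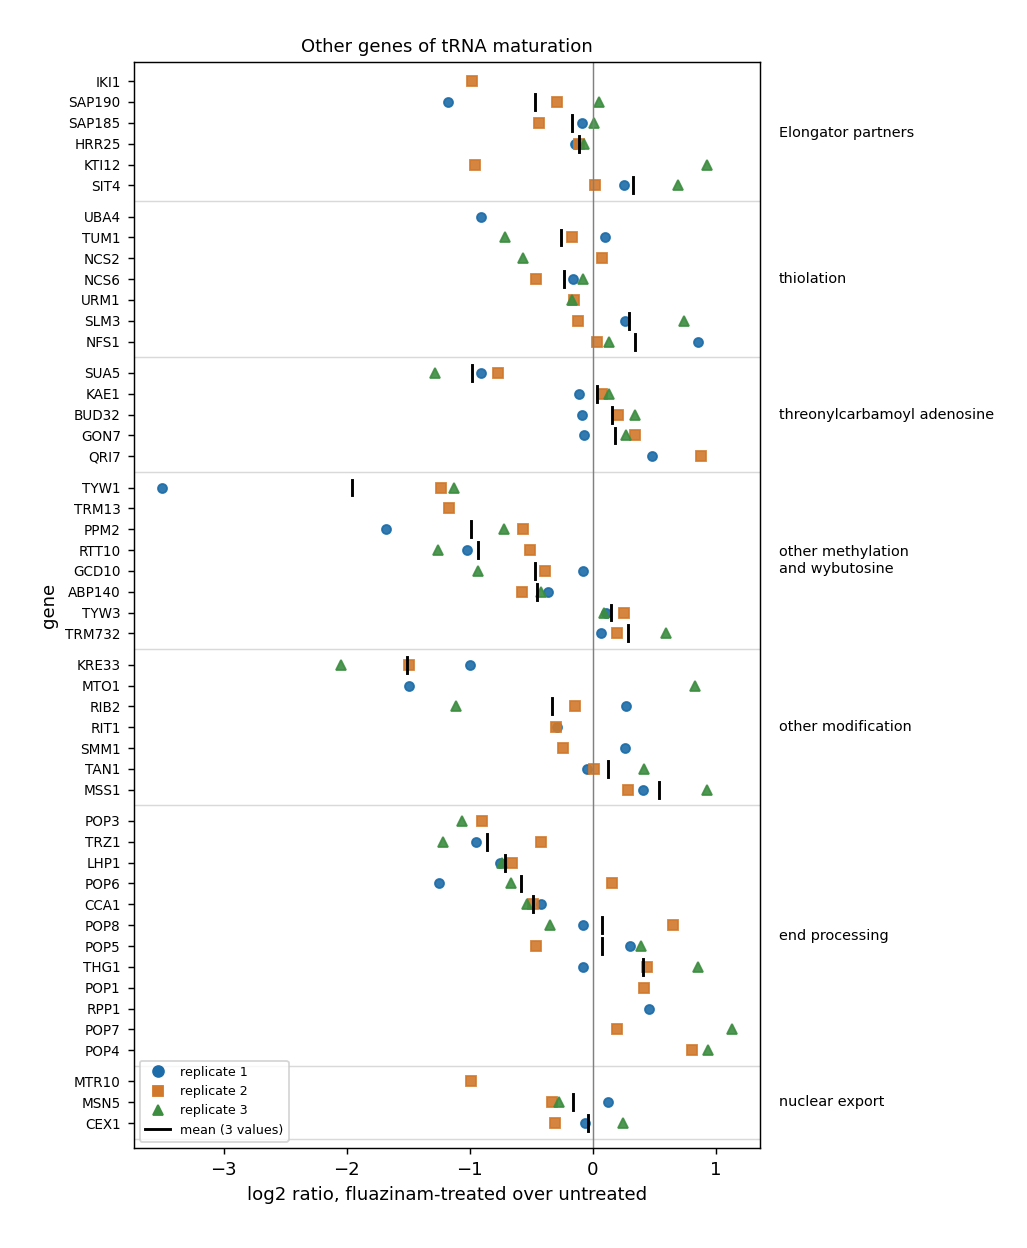
Log2 ratio of treated over untreated cells (horizontal axis) on each array for the 48 other genes of tRNA maturation with a value (vertical axis), by step; points are single arrays and black bars are means over 3 values. KRE33, the gene that passed the test, has its 3 points between -2.05 and -1.00, and TYW1 has the lowest single value at -3.50.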

How the data were processed

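The authors deposited 1 table of log ratios, read here as log2 of Cy5 (treated) over Cy3 (untreated), with 1 column per array. LOWESS normalization used the spots flagged 0, per the labels; scanner, background correction and log base are not given in the sources used here. Values ran from -4.48 to 5.50, and 71.2%, 83.6% and 77.6% of 6272 probes had one on replicates 1 to 3.

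Probes were named through the platform annotation (5308 with 1 symbol, 0 with several, 964 with none). All 40 symbols matched the R64 gene table, used for locus tags and neighbours only. Probes of a gene were averaged per array. Features with 3 values were tested against 0 with lmFit and eBayes (limma 3.58.1, R 4.3.3, 5.10 prior degrees of freedom). They were given Benjamini-Hochberg adjusted p-values over all 3802. The fit was also run on simulated data. Genes there were drawn as independent and no bar was set for the smaller changes, so the run does not show the power for these genes. SDs are over 3 arrays and intervals are 95%.

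The members and lists were chosen with earlier results of these data known. All members are named, with array values in full for those past the threshold or with 1 sign and a mean beyond 0.5 in size. Of the other genes, those past the threshold and the largest mean of each step are named, and further ones were chosen after their values were seen. Blocks are 32 sub-grids, 4 by 8, inferred from probe numbers. Alternatives were other scalings, block medians, values on at least 2 arrays, other moderation, array weights, a threshold of 0.01, the first listed probe and leaving out each array. Sequences were not used here.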

Additional observations from a re-analysis of the deposited data

How the results depend on the processing

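The median of the tRNA enzyme genes stayed below 0 in every alternative run. It was -0.32 with arrays centred on their medians, -0.35 with a common median absolute deviation, -0.34 with quantile normalization, and -0.43 to -0.29 over the arrays left out. The count of these genes past the threshold was 0 to 3 over the arrays left out and 2 with block medians subtracted (PUS7 and ELP6, where 10.3% of all features passed), and 0 in the other alternatives. Over all features the count of 299 became 0 to 657 over the arrays left out, 1 without moderation and 0 at an adjusted p of 0.01. Means turned sign with block medians subtracted for PUS1 (-0.0052) and TRL1 (0.23). Over the arrays left out, means ran from -0.087 (without replicate 2) to 0.51 for PUS1, -0.27 to 0.053 (without replicate 1) for PUS9, -0.26 to 0.0090 for TRM112 and -0.50 to 0.16 for TPT1. TYW1 passed with centring, a common deviation, quantile normalization, robust moderation and without replicate 2, and SUA5 with quantile normalization and block medians subtracted. The causes were not tested. Each array sets treated against untreated RNA, so the pairing within an array is already in its ratio, and there is 1 group of ratios.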
